A study of Homo sapiens with 16 samples.

Results

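Replacement histone variants were followed as 9 genes, H1-10, H2AX, H2AJ, H2AZ1, H2AZ2, H3-3A, H3-3B, MACROH2A1 and MACROH2A2, among the 60649 genes of the deposited count table. All 9 had 1 entry each in the table, and all 9 were among the 19103 genes that passed the filter on low counts. The RNA came from ASC52telo, an established human line of adipose mesenchymal stem cells (MSCs) immortalised with telomerase, a modification that every group shares. The 4 groups were MmC-/GDF11- (untreated "young" MSCs), MmC-/GDF11+ (young MSCs given GDF11), MmC+/GDF11- (senescent MSCs) and MmC+/GDF11+ (senescent MSCs given GDF11), with 4 libraries each. Mitomycin C (MmC), which alkylates DNA, was applied at 1.5 µg/mL for 18 h, and the cytokine GDF11 at 10 ng/mL during the 10 days that followed. The comparisons ask how senescence after MmC altered the mRNA of these genes and whether GDF11 altered it in young or in senescent MSCs.

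Most histone mRNA is made in S phase from clustered genes without introns, ends in a stem-loop instead of a poly(A) tail, and supplies the octamers laid down behind the replication fork. Replacement variants are made through the whole cell cycle, mostly as polyadenylated mRNA, and are exchanged into chromatin by dedicated chaperones and remodellers. In cells that have stopped dividing they become the main source of new histone, and several of them have roles in DNA damage marking, transcription start sites and senescence-associated heterochromatin.

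The poly(A)-enriched libraries held 71275337 to 144204979 counts each. The MSC surface marker genes NT5E, THY1, ENG, CD44 and ITGB1 were all among the tested genes and summed to between 4735 and 6428 CPM (counts scaled by TMM to a common library size) per library. The 7 markers of other cell types summed to 14.5 to 28.0 CPM in the MmC- libraries and 21.5 to 33.8 CPM in the MmC+ libraries, with HLA-DRA at 0 CPM in the MmC-/GDF11- group and PECAM1, an endothelial gene, rising from 5.96 to 14.4 CPM without GDF11. CDKN1A, which encodes the cell cycle inhibitor p21, was at 181 to 330 CPM in the MmC-/GDF11- libraries and at 1075 to 2031 CPM in the MmC+/GDF11- libraries. In bulk RNA, fewer cells of a type and less RNA per cell cannot be told apart.

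The genes lie on 9 chromosomes (GENCODE v44 on hg38). H1-10 and H2AX are single exons at chr3:129314771-129316286 and chr11:119093874-119095465, both on the minus strand, and H2AJ has a single-exon canonical transcript in a gene at chr12:14774405-14778002 on the plus strand. H2AZ1 (chr4:99948086-99950355, minus strand) and H2AZ2 (chr7:44826791-44848087, minus strand) have 5 exons each. The H3.3 genes H3-3A (chr1:226061851-226072019, plus strand) and H3-3B (chr17:75776434-75785893, minus strand) have 4 each, and MACROH2A1 (chr5:135334381-135399914, minus strand) and MACROH2A2 (chr10:70052544-70112282, plus strand) have 9 each.

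H2AX stands between the classes, because its mRNA can end at a histone stem-loop or be polyadenylated, and only the polyadenylated form is selected by poly(A) enrichment. The canonical transcripts were therefore searched for the 16-base stem-loop of replication-dependent histone mRNAs. It was found in 1 of the 9 genes, in 68 of 68 replication-dependent histone genes and in 86 of 20046 protein-coding genes (0.429%). The single match, shown because it marks the place where the shorter H2AX mRNA ends, lies at chr11:119094898-119094913 on the minus strand, in the 3′ untranslated part, 50 bases after the coding sequence and 1024 bases before the annotated transcript end, with all its letters in capitals:
H2AX stem-loop: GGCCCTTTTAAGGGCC

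Promoter windows of 300 bases from RefSeq (GRCh38.p14), reaching 250 bases before and 50 bases after the transcription start, were matched by symbol for all 9 genes. They were searched on both strands for the NF-Y box CCAAT. The same was done for TTTGAA, the core of the cell cycle homology region, and for 4 E2F cores. These cores read TTTCCCGC, or TTTGGCGC, or TTTCGCGC, or TTTGCCGC. CCAAT occurred in 6 of the 9 windows, with 4 matches each in H2AX, H2AZ2 and H3-3B, 3 each in H2AJ and H2AZ1, and 1 in H3-3A, and 34.6% of all 35116 windows held it. TTTGAA occurred in H2AX and H2AZ1, against 15.2% of all windows, and none of the 9 windows held an E2F core, against 3.31% of all windows. No match overlapped a match of another motif. The windows of H2AX and H2AZ1, whose mRNA fell most after MmC, are shown with that of H2AJ, whose change did not pass the test. Capitals mark the NF-Y box and the cell cycle element on either strand, and each window reads 5′ to 3′ on the gene's strand, at chr11:119095416-119095715 (minus), chr4:99950226-99950525 (minus) and chr12:14774155-14774454 (plus) in the order given:
H2AX: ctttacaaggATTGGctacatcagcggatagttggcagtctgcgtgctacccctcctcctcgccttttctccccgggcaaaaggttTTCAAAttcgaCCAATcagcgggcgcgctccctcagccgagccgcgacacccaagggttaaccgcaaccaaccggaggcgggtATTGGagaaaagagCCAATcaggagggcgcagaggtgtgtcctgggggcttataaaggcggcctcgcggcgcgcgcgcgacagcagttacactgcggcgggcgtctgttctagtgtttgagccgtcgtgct
H2AZ1: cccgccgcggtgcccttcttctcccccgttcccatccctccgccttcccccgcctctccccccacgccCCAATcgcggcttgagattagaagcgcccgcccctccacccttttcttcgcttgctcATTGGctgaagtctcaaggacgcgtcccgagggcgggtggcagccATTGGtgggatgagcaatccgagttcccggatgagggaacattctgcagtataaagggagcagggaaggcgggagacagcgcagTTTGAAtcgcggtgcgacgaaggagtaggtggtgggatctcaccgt
H2AJ: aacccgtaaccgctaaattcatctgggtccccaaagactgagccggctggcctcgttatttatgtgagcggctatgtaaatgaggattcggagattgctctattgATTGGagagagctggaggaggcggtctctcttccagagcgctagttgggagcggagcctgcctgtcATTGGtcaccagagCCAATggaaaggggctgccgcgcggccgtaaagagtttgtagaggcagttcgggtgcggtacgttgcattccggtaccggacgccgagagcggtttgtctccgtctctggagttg
H2AX and H2AJ each carried a pair of CCAAT boxes in opposite orientation close to the start, beginning 81 and 67 bases upstream in H2AX and 79 and 65 bases upstream in H2AJ. The TTTGAA of H2AX began 164 bases upstream, and that of H2AZ1 began 4 bases after the first transcribed base. A match describes letters in this window only.

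Senescent MSCs without GDF11 had less mRNA of 8 of the 9 genes than young MSCs (adjusted p under 0.05, edgeR quasi-likelihood test with Benjamini-Hochberg adjustment over 19103 genes). The falls ranged from 3.02-fold for H2AX, the variant phosphorylated at DNA breaks, to 1.21-fold for MACROH2A1. H2AJ, whose protein is known to accumulate in senescent fibroblasts with DNA damage, was the exception at the mRNA level, and none of the 9 genes rose. Protein was not measured here. Of all tested genes 45.3% passed the same test, 22.4% downward and 22.9% upward. The median log2 fold change of the 9 genes was -0.65, that of all tested genes -0.01. With GDF11 in both arms, 7 of the 9 genes were lower, against 46.7% of all genes called, 23.3% lower and 23.4% higher, with a median of -0.64 against -0.01. These comparisons set different libraries against each other, 8 each, but share the same estimate of the spread from all 16. The second is therefore not an independent repeat of the first.

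**Figure D1:**
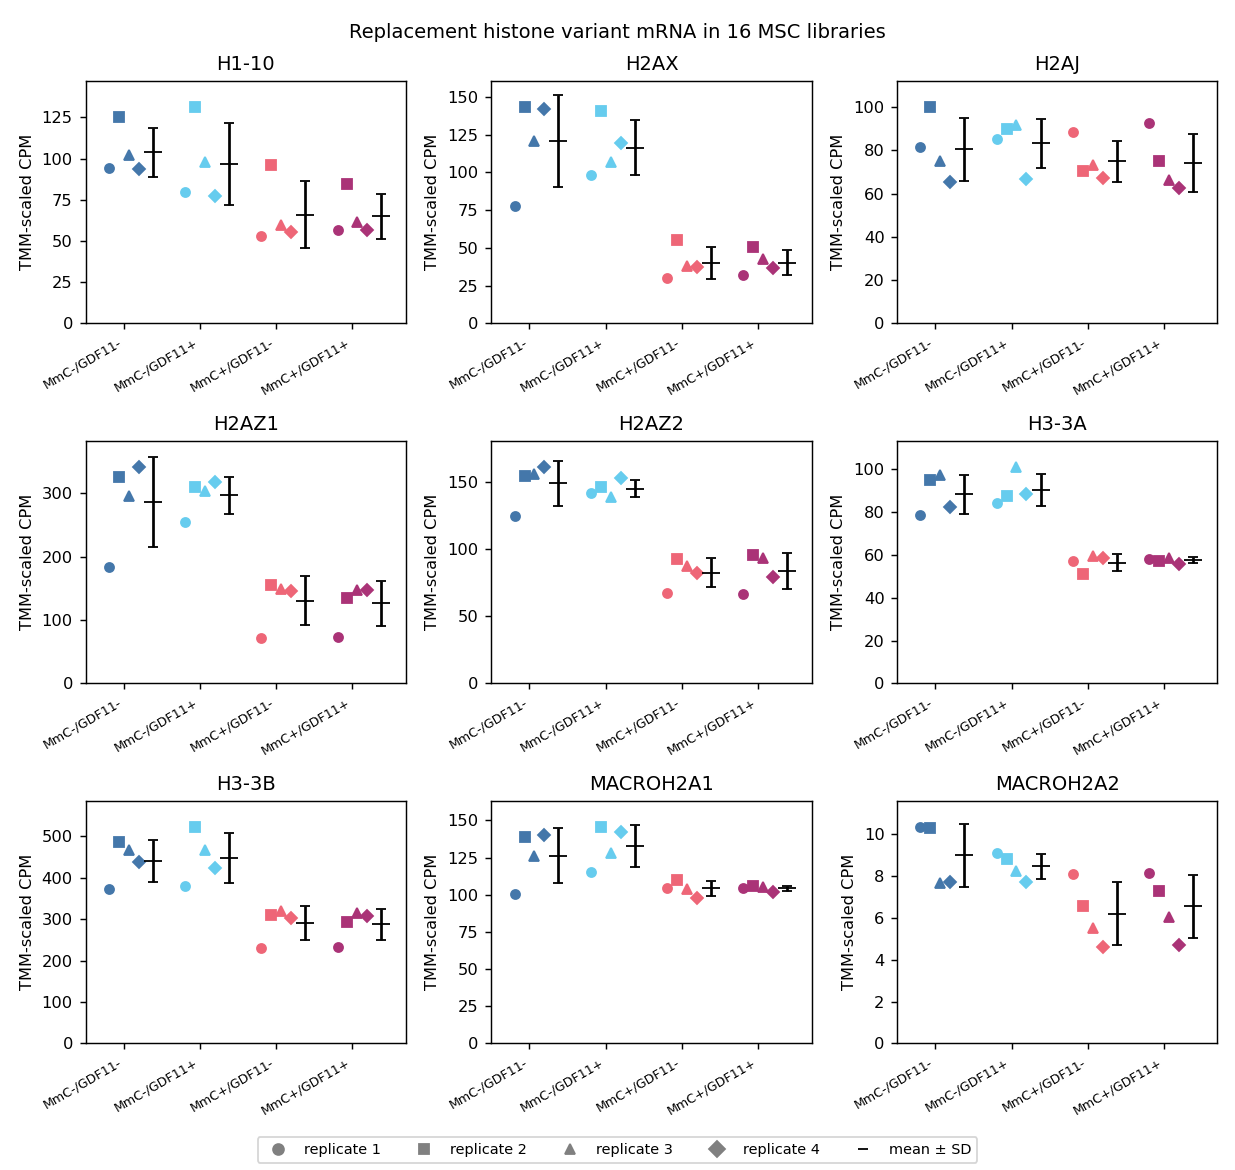
TMM-scaled CPM of the 9 genes in the 16 libraries. Each panel is a gene with its own linear axis from 0, each symbol a library (shape gives the replicate number), and the bar on the right of each group the mean and SD of 4 libraries. H2AX sits at 30.1 to 54.9 CPM in the 8 MmC+ libraries and at 77.9 to 143 CPM in the 8 MmC- libraries, and H2AJ covers about the same range in all 4 groups.

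H2AX marks chromatin around double-strand breaks once its tail is phosphorylated. In libraries 1 to 4 of MmC-/GDF11- it stood at 77.9, 143, 121 and 142 CPM, and in those of MmC-/GDF11+ at 98.5, 141, 107 and 119.5 CPM. In MmC+/GDF11- it stood at 30.1, 54.9, 38.1 and 37.4 CPM, and in MmC+/GDF11+ at 31.7, 50.3, 42.6 and 36.3 CPM. Every MmC+ library was below every MmC- library. Without GDF11 the mean fell from 121 ± 30.5 to 40.1 ± 10.5 CPM (SD, n = 4), and the log2 fold change was -1.59 (SE 0.212, edgeR adjusted p = 2.70e-05). With GDF11 it fell from 116 ± 18.4 to 40.2 ± 8.07 CPM, a log2 fold change of -1.53 (SE 0.212, edgeR adjusted p = 3.67e-05). H2AX was the only one of the 9 genes called by a test against a 2-fold change (glmTreat).

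H2AJ differs from canonical H2A at few residues and is made in mammalian tissues at varying levels. Its 4 libraries of MmC-/GDF11- read 81.5, 100.1, 75.3 and 65.3 CPM, and those of MmC-/GDF11+ 85.1, 89.8, 91.7 and 66.8 CPM. In senescent MSCs they read 88.7, 70.5, 73.2 and 67.1 CPM without GDF11 and 92.8, 75.2, 66.4 and 62.4 CPM with it. All 4 groups overlapped, and replicate 1 was the highest library of both MmC+ groups. The log2 fold change was -0.11 without GDF11 (95% interval -0.42 to 0.21, edgeR adjusted p = 0.591) and -0.17 with GDF11 (95% interval -0.48 to 0.15, edgeR adjusted p = 0.376).

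H2A.Z, encoded by H2AZ1 and H2AZ2, flanks transcription start sites and enhancers. H2AZ1 read 184, 326, 296 and 342 CPM in MmC-/GDF11- and 254, 311, 304 and 319 CPM in MmC-/GDF11+. After MmC it read 72.2, 155, 148 and 145 CPM without GDF11 and 73.8, 135, 148 and 148 CPM with GDF11. The groups did not overlap, and replicate 1 was the lowest library in each of the 4 groups. The means fell from 287 ± 71.3 to 130.1 ± 38.8 CPM without GDF11 (log2 fold change -1.14, SE 0.256, edgeR adjusted p = 0.00205) and from 297 ± 29.1 to 126 ± 35.3 CPM with GDF11 (-1.24, SE 0.256, edgeR adjusted p = 0.00113).

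H2AZ2, whose protein differs from that of H2AZ1 at a few residues, read 124, 154, 156 and 161 CPM in MmC-/GDF11- and 142, 146, 139 and 153 CPM in MmC-/GDF11+. After MmC it read 67.2, 92.7, 87.6 and 82.2 CPM, and with GDF11 66.8, 95.8, 93.1 and 79.1 CPM. No MmC+ library reached an MmC- library. The log2 fold changes were -0.85 (SE 0.123, edgeR adjusted p = 5.03e-05) without and -0.79 (SE 0.123, edgeR adjusted p = 9.35e-05) with GDF11.

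H3-3A and H3-3B encode the same protein, H3.3, which replaces H3.1 in active genes, at telomeres and in pericentromeric repeats. H3-3A read 78.8, 94.8, 97.3 and 82.5 CPM in MmC-/GDF11-, and 84.2, 87.8, 101 and 88.6 CPM in MmC-/GDF11+. In senescent MSCs it read 57.0, 50.9, 59.5 and 58.3 CPM without GDF11, and 58.2, 57.3, 58.8 and 55.7 CPM with it. The MmC+ libraries all lay below the MmC- libraries, and those with GDF11 spanned 55.7 to 58.8 CPM. The log2 fold change was -0.65 in both arms, with an SE of 0.0858 and an edgeR adjusted p of 2.29e-05 without and 2.02e-05 with GDF11.

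H3-3B had the most counts of the 9 genes. It read 372, 487, 466 and 437 CPM in MmC-/GDF11-, and 381, 522, 468 and 424 CPM in MmC-/GDF11+. It read 231, 309, 321 and 302 CPM in MmC+/GDF11-, and 234, 294, 316 and 309 CPM in MmC+/GDF11+. The groups again did not overlap, and replicate 1 was the lowest of each. The log2 fold changes were -0.60 (SE 0.135, edgeR adjusted p = 0.00188) without and -0.64 (SE 0.135, edgeR adjusted p = 0.00115) with GDF11.

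H1-10 encodes H1.10 (H1x), a linker histone that binds the DNA between nucleosomes. It read 94.5, 125, 102 and 93.5 CPM in MmC-/GDF11-, and 79.9, 131, 98.2 and 77.2 CPM in MmC-/GDF11+. It read 53.0, 96.3, 59.4 and 55.4 CPM in MmC+/GDF11-, and 56.7, 84.8, 61.4 and 56.6 CPM in MmC+/GDF11+. Replicate 2 was the highest library of every group, and through it the MmC+ and MmC- groups overlapped. The log2 fold changes were -0.65 (SE 0.208, edgeR adjusted p = 0.0177) without and -0.58 (SE 0.208, edgeR adjusted p = 0.0324) with GDF11.

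The macroH2A proteins carry a large globular domain beside their histone part and are known components of senescence-associated heterochromatin foci. MACROH2A1 read 100.3, 139, 126 and 140.0 CPM in MmC-/GDF11-, and 115, 145, 128 and 142 CPM in MmC-/GDF11+. It read 105, 109.7, 104 and 98.0 CPM in MmC+/GDF11-, and 104, 106, 106 and 102 CPM in MmC+/GDF11+. Replicate 1 of MmC-/GDF11- fell among the senescent libraries, and with GDF11 the groups did not overlap. The log2 fold changes were -0.28 (SE 0.102, edgeR adjusted p = 0.0350) without and -0.35 (SE 0.102, edgeR adjusted p = 0.0106) with GDF11.

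MACROH2A2 was the least abundant of the 9 genes, with 401 to 992 counts per library. It read 10.3, 10.3, 7.65 and 7.69 CPM in MmC-/GDF11-, and 9.07, 8.81, 8.23 and 7.72 CPM in MmC-/GDF11+. It read 8.09, 6.57, 5.54 and 4.62 CPM in MmC+/GDF11-, and 8.16, 7.26, 6.05 and 4.69 CPM in MmC+/GDF11+. The groups overlapped in both arms. Its log2 fold change was -0.53 (SE 0.184, edgeR adjusted p = 0.0266) without GDF11, and with GDF11 it was -0.37 (95% interval -0.76 to 0.02, edgeR adjusted p = 0.109), which did not pass. With the replicate number as a block the fall with GDF11 did pass (-0.40, edgeR adjusted p = 0.00280).

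**Figure D2:**
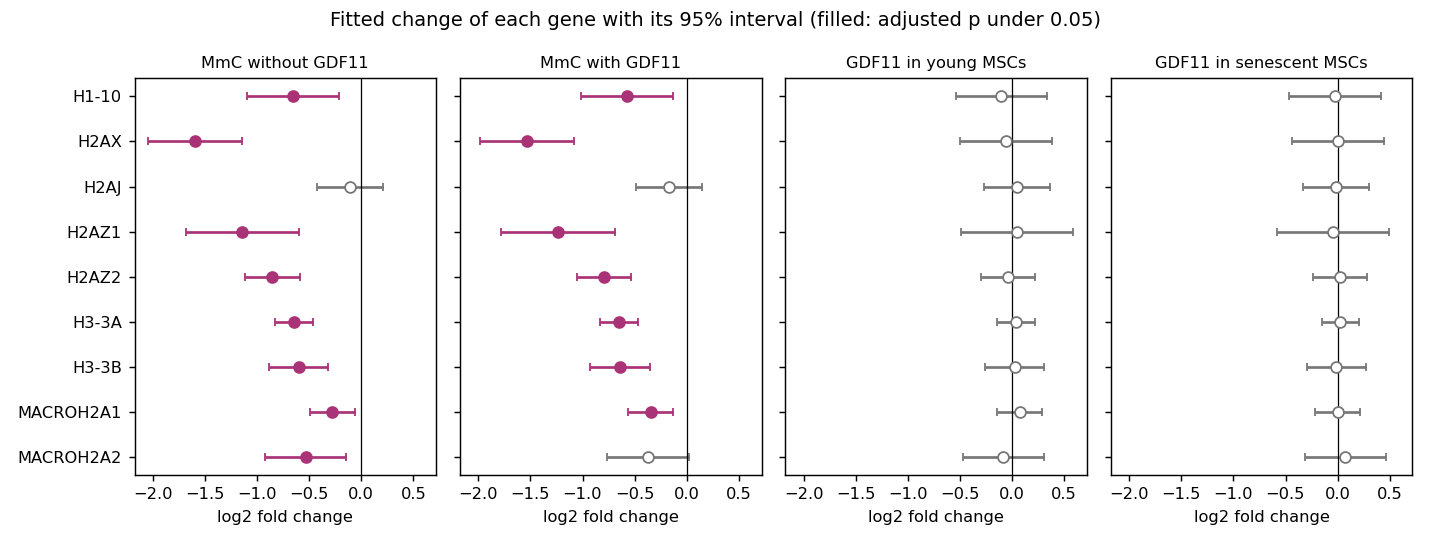
Fitted log2 fold change of the 9 genes in 4 comparisons. Points are edgeR estimates from all 16 libraries, bars their 95% intervals, and filled points have an adjusted p under 0.05. In the MmC panels the points lie between -1.59 and -0.11, and in the GDF11 panels all intervals include 0.

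The libraries of MmC+ and MmC- did not overlap for 5 of the 9 genes without GDF11 (H2AX, H2AZ1, H2AZ2, H3-3A and H3-3B), all of them downward, against 18.2% of all tested genes. With GDF11 they did not overlap for those 5 and MACROH2A1, against 21.2%. The calls of these 5 genes held when any single library was left out. The calls of H1-10, MACROH2A1 and MACROH2A2 without GDF11 did not. H1-10 lost its call without MmC+/GDF11- replicate 1 (adjusted p = 0.0527), MmC-/GDF11- replicate 2 (0.0637) or MmC+/GDF11- replicate 4 (0.0581). MACROH2A2 lost it without MmC-/GDF11- replicate 1 (0.0767) or 2 (0.0836), or MmC+/GDF11- replicate 3 (0.0746) or 4 (0.0946). MACROH2A1 lost it without any of replicates 2, 3 and 4 of MmC-/GDF11- (0.109, 0.0657 and 0.120) or replicates 1, 3 and 4 of MmC+/GDF11- (0.0578, 0.0686 and 0.101). With GDF11, H1-10 lost its call without MmC-/GDF11+ replicate 2 (0.142) or 3 (0.0662), or MmC+/GDF11+ replicate 1 (0.0814), 3 (0.0792) or 4 (0.0948), and MACROH2A2 gained one without MmC+/GDF11+ replicate 1 (0.0483). Without either MmC-/GDF11- replicate 2 or MmC+/GDF11- replicate 4, 5 of the 9 genes were called without GDF11, and without replicate 1 in every group 7 were called in each arm. All these fits had no block. With the replicate number as a block and all libraries kept, 8 of the 9 genes were called in each arm. The block was not combined with leaving out single libraries.

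GDF11 changed the mRNA of none of the 9 genes detectably. In young MSCs the log2 fold changes lay between -0.10 for H1-10 and 0.07 for MACROH2A1, and in senescent MSCs between -0.04 for H2AZ1 and 0.08 for MACROH2A2. The 95% intervals were narrowest for H3-3A, at -0.15 to 0.21 in young and -0.15 to 0.21 in senescent MSCs, and widest for H2AZ1, at -0.49 to 0.59 and -0.58 to 0.49. The edgeR test called 0 of 19103 genes (0%) in either comparison. Below an unadjusted p of 0.05 were 226 genes in the young and 96 in the senescent cells, none of them among the 9. Both counts are fewer than chance gives at this threshold. Whether the fit without a block is conservative for GDF11 was not tested. With the replicate number as a block the counts were 551 and 145, also fewer than chance gives and again none among the 9. The block fit called 0 genes in either comparison. limma-voom called 0 genes in both, and DESeq2 called 1 in young and 0 in senescent MSCs. For the interaction, that is whether MmC acted differently with and without GDF11, 0 genes were called by edgeR (172 below an unadjusted p of 0.05), limma-voom and DESeq2. The interaction of the 9 genes was at most 0.16 on the log2 scale, for MACROH2A2 (95% interval -0.39 to 0.71, edgeR adjusted p = 1.00). The passing of MACROH2A2 without GDF11 and not with it is therefore not shown to be a difference between the arms.

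Levels of different genes were set side by side only per kilobase of the canonical transcript. In MmC-/GDF11- the order was H2AZ1 (331 ± 82.4 CPM per kilobase, SD, n = 4), H3-3B (163 ± 18.5), H2AJ (129.9 ± 23.6), H3-3A (82.5 ± 8.48), H2AX (76.0 ± 19.2), H1-10 (68.5 ± 9.75), MACROH2A1 (65.9 ± 9.65), H2AZ2 (49.2 ± 5.46) and MACROH2A2 (4.65 ± 0.785). Neighbours whose libraries did not overlap were H2AZ1 and H3-3B, H2AJ and H3-3A, and H2AZ2 and MACROH2A2, while the other neighbours overlapped. Divided by the length of all annotated exons instead, H2AZ1 stayed the highest and MACROH2A2 the lowest, and H2AX moved to the second and H2AJ to the fifth place. The order therefore rests on the length chosen, since reads were not assigned to transcripts. The 9 genes made up 0.142% ± 0.0204 of all counts in MmC-/GDF11- and 0.0847% ± 0.0132 in MmC+/GDF11-.

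Within the 6 H2A variant genes, shares of the summed CPM per kilobase shifted with MmC. H2AJ made up 20.3% ± 5.12 (SD, n = 4) in MmC-/GDF11- and 32.3% ± 7.76 in MmC+/GDF11-, from 14.7 to 26.8% and from 27.2 to 43.8% in single libraries. H2AX went from 11.4% ± 1.05 to 6.55% ± 1.14, H2AZ1 from 49.9% ± 4.95 to 38.8% ± 8.86, and MACROH2A1 from 10.1% ± 0.446 to 14.4% ± 1.59. The share of H2AZ2 was 7.57% and 7.13%, and that of MACROH2A2 0.736% and 0.861%. The single-library shares of H2AX, H2AJ and MACROH2A1 did not overlap between these groups, and those of H2AZ1 did. Since shares sum to the whole, the larger share of H2AJ stands beside a summed level that went from 657 ± 117 to 381 ± 39.5 CPM per kilobase, with H2AJ itself at 129.9 and 121 CPM per kilobase. Divided by the length of all annotated exons instead, the share in each group differed by over 1.5 times from that by canonical length for H2AJ (9.84% ± 2.94 in MmC-/GDF11- and 19.01% ± 6.33 in MmC+/GDF11-), H2AX (29.5% ± 1.52 and 20.3% ± 2.55), MACROH2A1 (2.94% ± 0.243 and 5.09% ± 0.999) and MACROH2A2 (0.248% ± 0.0948 and 0.353% ± 0.151). Each share thus rests on the length chosen. By that length too, the single-library shares of H2AX, H2AJ and MACROH2A1 did not overlap between these groups. The shares were not tested.

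**Figure D3:**
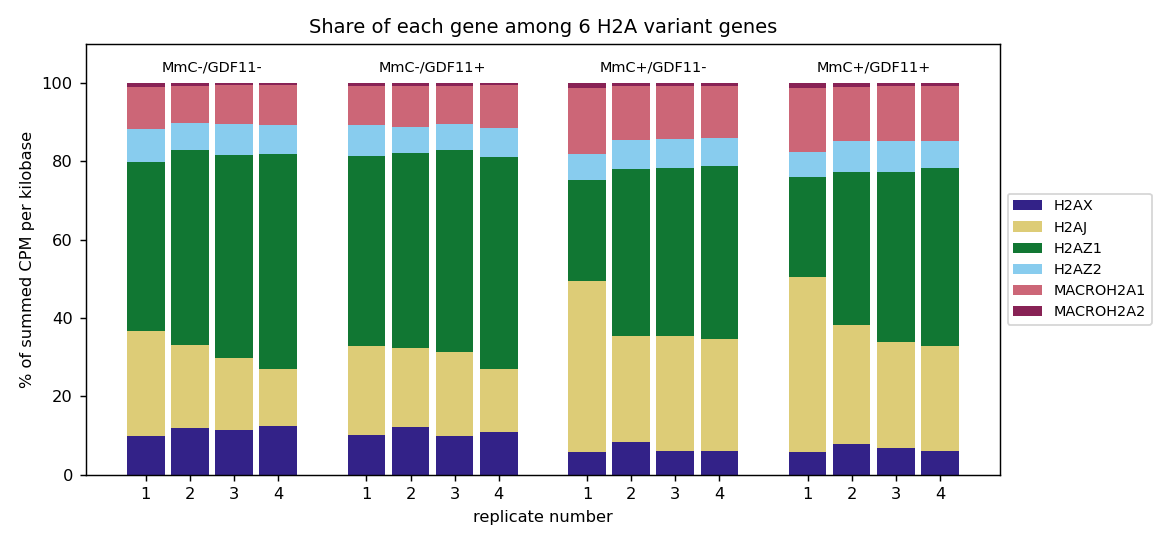
Share of each of 6 H2A variant genes in their summed CPM per kilobase of canonical transcript, in percent, for each of the 16 libraries. Columns are libraries, grouped by treatment and numbered by replicate. H2AJ takes 27.2 to 43.8% in MmC+/GDF11- and 14.7 to 26.8% in MmC-/GDF11-, and replicate 1 has the smallest share of H2AZ1 in all 4 groups.

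The genes that encode the same or closely related proteins were compared within each library, as the log2 ratio of their counts, which does not depend on library scaling. The ratio of H2AZ1 to H2AZ2 was 0.56, 1.08, 0.93 and 1.08 in MmC-/GDF11- and 0.10, 0.74, 0.76 and 0.82 in MmC+/GDF11-. With GDF11 it was 0.84, 1.09, 1.13 and 1.06 in MmC-/GDF11+ and 0.15, 0.50, 0.67 and 0.90 in MmC+/GDF11+. The ratio was lower in the MmC+ library of all 4 same-numbered pairs in each arm, and the groups overlapped. In the arm with GDF11 the replicate numbers were not taken as pairs. The difference was -0.31 without GDF11 (two-sided exact permutation test, p = 0.2) and -0.48 with GDF11 (exact p = 0.0571). With 4 against 4 libraries the smallest p is 0.0286, and after adjustment over the 12 ratio tests the lowest p was 0.686.

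The ratio of H3-3A to H3-3B was -2.32 ± 0.0799 (SD, n = 4) in MmC-/GDF11- and -2.36 ± 0.246 in MmC+/GDF11-. MmC moved it by -0.04 without GDF11 (exact p = 0.8) and by -0.01 with GDF11 (exact p = 0.943). The ratio of MACROH2A1 to MACROH2A2 was 3.82 ± 0.399 and 4.10 ± 0.305, higher in the MmC+ library of all 4 same-numbered pairs without GDF11, and differed by 0.28 (exact p = 0.314). With GDF11 it differed by 0.06 (exact p = 0.8). The 6 comparisons of GDF11 gave differences between -0.07 and 0.15, with exact p from 0.543 to 0.886.

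**Figure D4:**
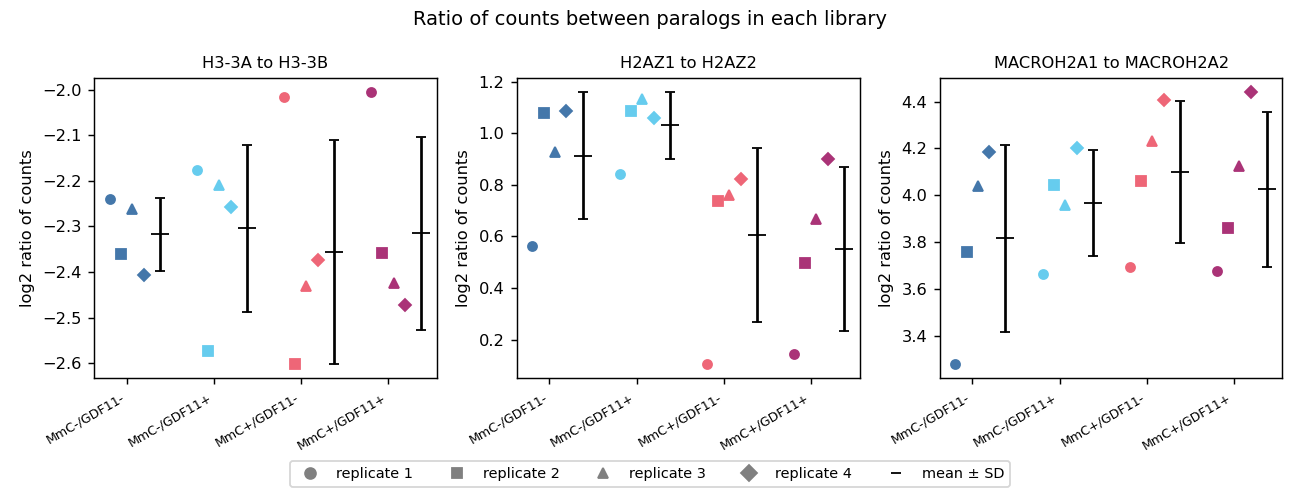
Log2 ratio of counts for 3 pairs of related genes in the 16 libraries. Symbols are libraries (shape gives the replicate number) and bars the mean and SD of 4 libraries per group. Replicate 1 has the lowest H2AZ1 to H2AZ2 ratio in each group, at 0.10 in MmC+/GDF11-, and the H3-3A to H3-3B ratio stays between -2.60 and -2.01.

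Some of these genes cannot be counted cleanly. Of the 31-base words of the canonical H3-3A transcript 96.0% also occur elsewhere on the main chromosomes. Processed pseudogenes hold some of them, such as H3P6, which received 9771 counts over the 16 libraries, 9.42% of the count of H3-3A. The share of words found elsewhere was 42.9% for H2AZ1, 25.2% for H3-3B, 24.1% for H2AZ2, 3.97% for H2AX and 3.22% for H2AJ. It was 0% for H1-10, MACROH2A1 and MACROH2A2. How reads that align to several places were counted is not given in the sources used here, so the levels of H3-3A and H2AZ1 are uncertain. With the counts of near-identical copies added to each gene, 8 genes without and 7 with GDF11 were called. Genes on the opposite strand overlap 22.8% of the exonic bases of H1-10 (H1-10-AS1), 27.7% of MACROH2A1 (PITX1-AS1), 9.82% of H2AZ1 (H2AZ1-DT) and 6.58% of MACROH2A2 (AIFM2). The strand setting of the counting is likewise not given, and without it such reads cannot be told apart.

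Both tested H3 variants outside the 9 genes fell as well. CENPA, the centromeric variant, fell after MmC without GDF11 from 14.3 ± 4.32 to 2.96 ± 1.17 CPM (-2.27, edgeR adjusted p = 9.79e-05). H3-5, an H3.3-like retrocopy that shares sequence with H3-3B, fell from 3.01 ± 0.191 to 1.99 ± 0.331 CPM (-0.60, edgeR adjusted p = 0.00358). The 4 genes that load CENPA at the centromere all fell, among them its chaperone HJURP (-1.70), OIP5 (-1.66) and MIS18A (-1.32). Of all tested genes 22.4% were called lower in this comparison.

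Factors that place H3.3 moved in part. Of 8 such genes 5 were lower and 0 higher after MmC without GDF11 (median log2 fold change -0.40 against -0.01 for all genes). DEK, an H3.3 chaperone, fell by 0.79, ASF1A, which hands H3-H4 to the HIRA complex, by 0.60, and UBN1, a subunit of that complex, by 0.47 on the log2 scale. With GDF11 in both arms 4 were lower and 1 higher, the latter UBN2 (0.58), named after its value was seen. DAXX was counted at only 0.782 CPM in MmC-/GDF11-, and 91.9% of its words also lie on alternate contigs of its region. IPO4, of the assembly list below, was at 0.841 CPM in that group with 0% of its words on such contigs. The cause of these low counts was not tested. Of 12 genes for H3.1 and H4 assembly at replication 6 were lower and 0 higher in each arm, with medians of -0.62 without and -0.51 with GDF11 against -0.01 for all genes, of which 45.3% and 46.7% were called and 22.4% and 23.3% called lower. They were led without GDF11 by TONSL (-1.07), CHAF1B, a subunit of the replication-coupled chaperone CAF-1 (-0.83), and MMS22L (-0.75).

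Of 16 genes of the H2A.Z exchange machinery 8 were lower and 0 higher in each arm (median -0.34 in both, against -0.01 for all genes). Of all tested genes 45.3% without and 46.7% with GDF11 were called in either direction, near the share called in this list. Called lower were 22.4% and 23.3% of all tested genes, while every call in this list was lower. ANP32E, which removes H2A.Z from nucleosomes, fell from 63.6 ± 9.74 to 32.8 ± 3.45 CPM (-0.96, edgeR adjusted p = 5.80e-06). RUVBL2, an ATPase shared by the exchange complexes, fell by 0.82 and ACTL6A, an actin-related subunit, by 0.80 on the log2 scale, while the catalytic subunits SRCAP (0.11), EP400 (-0.02) and INO80 (0.04) did not pass. Of 7 genes listed as H2A-H2B chaperones 5 were lower and 1 higher without GDF11. SSRP1 (-0.79) and SUPT16H (-0.37), the subunits of FACT, and NPM1, nucleophosmin (-0.71), fell. The gene that rose was SPTY2D1 (0.61), whose protein is known to bind H3-H4.

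Of 14 tested genes that set, read or remove H2AX phosphorylation, 5 were higher and 1 lower after MmC without GDF11 (median 0.09), where 22.9% of all tested genes were higher and 22.4% lower. With GDF11, 5 were higher and 2 lower, against 23.4% and 23.3% of all genes. PPM1D, the p53-induced phosphatase that removes the H2AX mark, rose from 12.3 ± 1.93 to 20.5 ± 2.39 CPM (0.74, edgeR adjusted p = 0.000606). TP53BP1, a reader recruited to the marked chromatin, rose by 0.55 and ATM, a kinase that sets the mark, by 0.43 on the log2 scale, and RNF8, a ubiquitin ligase, fell by 0.32. The other 2 that rose, EYA2 and EYA4, named after their values were seen, had means of 0.0165 and 0.0445 CPM in MmC-/GDF11-. MDC1, the main reader of the mark, was counted at 0.189 CPM, with 94.3% of its words also on alternate contigs. GDF11 gave 0 calls in each of these lists.

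**Figure D5:**
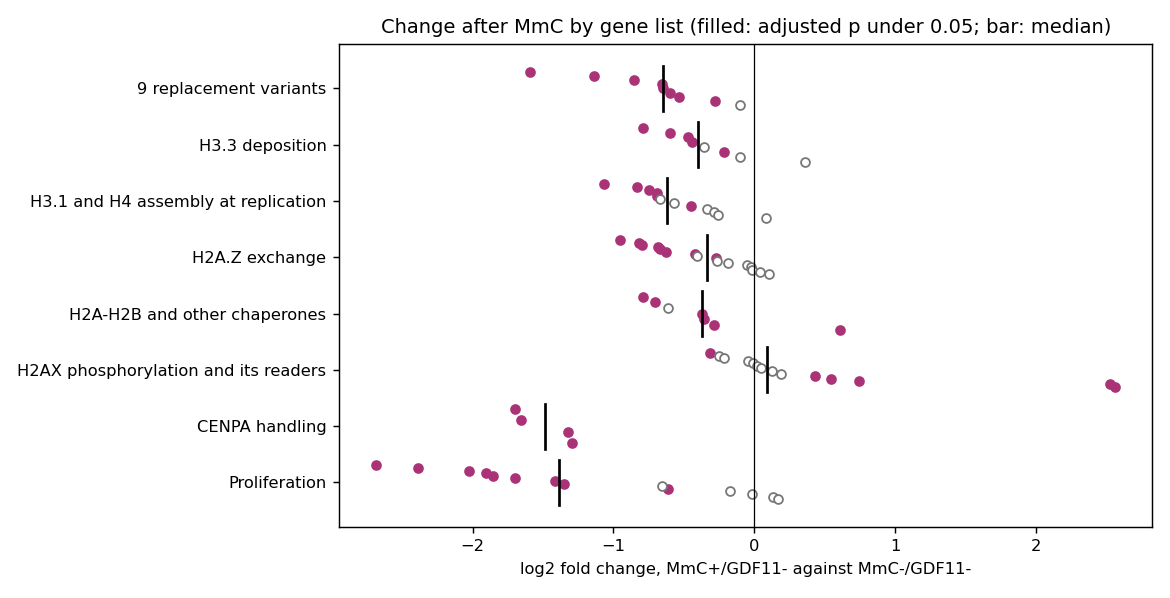
Log2 fold change after MmC without GDF11 for the 9 genes and 7 companion lists. Each point is a gene, filled where its edgeR adjusted p is under 0.05, and the bar is the median of the list. The 9 genes have a median of -0.65, the CENPA loading genes -1.49, the proliferation genes -1.38 and the genes of H2AX phosphorylation 0.09.

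Proliferation genes moved in the same libraries. Of all tested genes 22.4% were called lower and 22.9% higher without GDF11, and 23.3% and 23.4% with GDF11. Of 14 proliferation genes 9 were lower and 0 higher after MmC in each arm (median -1.38 without GDF11), with CCNB1 (-2.68), CCNA2 (-2.39) and BUB1 (-2.02) the lowest, all of them cell division genes. Their summed level was 773, 1262, 1323 and 1636 CPM in MmC-/GDF11- and 427, 760, 703 and 732 CPM in MmC+/GDF11-. Replicate 1 was the lowest in both of these groups, as it was for H2AZ1, H2AX and H3-3B. Of 6 genes known to move in senescence, LMNB1 (-2.64), HMGB2 (-2.01) and HMGB1 (-1.46) fell, CDKN1A (2.74) and CDKN2B (0.85) rose, and CDKN2A did not pass. The part of these changes in the values of the histone genes was not tested.

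As a description, the protein-coding genes whose log2 CPM ran closest to each of the 9 genes over the 16 libraries were sought among 9241 genes. They were PRR11 and CDC20 for H2AZ2 (Pearson's r 0.998 and 0.994), EXOSC8 and TROAP for H2AZ1 (0.996 and 0.995), MIPEP and TRAP1 for H2AX (0.991 and 0.990), DBI and GNAI3 for H3-3A (0.991 and 0.989) and SRSF7 and DYNC2I2 for H3-3B (0.989 and 0.983). H1-10 ran closest to TPGS1 (0.977) and AP4M1 (0.959), MACROH2A2 to HSPB1 (0.967) and EHD2 (0.958), H2AJ to TMSB4X (0.958) and SDHC (0.953), and MACROH2A1 to ACAD9 (0.955) and HARS1 (0.953). These values share the difference between MmC+ and MmC- libraries and the replicate numbers, and the best of so many genes is high by selection. Among the 9 genes themselves, H2AX and H2AZ2 had the highest correlation over all libraries (0.983), and after the group means were removed it was 0.859, below that of H2AZ1 with H2AZ2 (0.891) and with H3-3B (0.883). H2AJ ran with H2AZ1 at 0.000341 over the 16 libraries and at -0.59 after the group means were removed, with n = 16 libraries in each case.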

How the data were processed

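Poly(A)-enriched RNA of 16 ASC52telo libraries was analysed, 4 biological replicates in each of 4 groups taken from the sample labels. Alignment by the authors used HISAT2 2.2.1 and hg38, and the deposited values are raw featureCounts 2.0.1 counts per gene of GENCODE V38, not normalized. Strand setting and multi-mapped reads are not given in the sources used here, nor is a batch within the groups. The study names batch effects as a limit without saying which libraries they touch.

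Identifiers were matched to symbols, positions and lengths by GENCODE v44 (142 had no match). Counts were tested in R 4.3.3 with edgeR 4.0.16: filterByExpr (minimum count 10, minimum total 15), TMM scaling, a robust quasi-likelihood fit of 1 mean per group over all 16 libraries, and Benjamini-Hochberg adjustment over 19103 genes at 0.05. CPM are TMM-scaled, computed here. Per-length levels used the canonical transcript, since the deposited table has no length column as planned. Ratios were tested by exact permutation of 4 against 4 libraries. The edgeR p-values set each difference against the spread between cultures within groups, pooled over all 16 libraries and moderated across genes. The main fit does not use the replicate numbers.

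The members and lists were chosen with earlier results of these data known. Named genes are the 9 members, per list up to 3 higher and 3 lower called genes with the largest change after MmC without GDF11 whose mean log2 CPM was 1 or more, and per member the 2 most correlated protein-coding genes whose mean log2 CPM was 3 or more. Others are given as list or marker values, and 1 list that holds an item not reported here is given in part. The numbers were taken as pairs where the deviations of every same-numbered pair of libraries correlated across genes above a fixed cut-off. This held for MmC without GDF11 (lowest correlation 0.113) and for GDF11 in senescent MSCs (0.448). Differently numbered libraries reached 0.151 in the former, above its lowest same-number value, and 0.330 in the latter. The lowest value missed the cut-off for GDF11 in young MSCs (0.0982) and for MmC with GDF11 (0.0293). Their highest same-number correlations were 0.504 and 0.311, so the split rests on the cut-off. Alternatives were RLE and upper-quartile scaling, other filters, the compared libraries alone, the replicate number as a block, limma-voom (limma 3.58.1), DESeq2 1.42.0, glmTreat, thinning, copies summed, and libraries left out. A block fit without replicate 1 was added after seeing the data. The steps were tested on simulated data.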

Additional observations from a re-analysis of the deposited data

Results flagged for a closer look

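In 4 of 48 groups of 4 libraries tested (each gene or ratio in each group), 1 library stood apart from the other 3 by more than Dixon's 95% critical value for the gap over the range, and chance gives about 1 in 20. H1-10 in MmC+/GDF11- was at 96.3 CPM in replicate 2 and at 53.0 to 59.4 CPM in the others. H2AZ1 was at 72.2 CPM in replicate 1 of MmC+/GDF11- against 145 to 155 CPM, and at 73.8 CPM in replicate 1 of MmC+/GDF11+ against 135 to 148 CPM. The log2 ratio of H2AZ1 to H2AZ2 was 0.104 in replicate 1 of MmC+/GDF11- against 0.738 to 0.821. Replicate 1 of these 2 groups also had the lowest summed proliferation genes, at 427 and 432 CPM.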

How the results depend on the processing

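Scaling moved the median gene by at most 0.04 on the log2 scale. The test against a 2-fold change left 1294 genes and 1 of the 9 called for MmC without GDF11, and 1235 and 1 with GDF11, since it asks for a larger change. Leaving out libraries gave 5490 to 10004 genes and 5 to 8 of the 9 without GDF11, 5505 to 10164 and 5 to 7 with GDF11, both lowest without replicate 3 in every group, and 0 to 1 gene for GDF11 in young MSCs, where DESeq2 called 1. Among the fits that kept all replicates, MACROH2A1 without GDF11 was not called with no filter (adjusted p = 0.0761), with at least 10 counts in every library (0.0602) or with the compared libraries alone (0.106), nor MACROH2A2 with the compared libraries alone (0.0516), nor H1-10 with GDF11 with no filter (0.0790). The causes were not tested. With the replicate number as a block, 11066 genes and 8 of the 9 were called for MmC without GDF11. There the numbers were taken as pairs. With GDF11 the block gave 11267 and 8, MACROH2A2 being added (edgeR adjusted p = 0.00280). The numbers were not taken as pairs there because replicate 3 correlated weakly (0.0293), while replicates 1, 2 and 4 gave 0.311, 0.160 and 0.266. The block gave 0 calls for GDF11 and changed no other call of the 9 genes. For the ratios, sign flips within 4 pairs cannot give a p below 0.125, so that test could call none of them. In the block fit without replicate 1, H2AJ was called lower with GDF11 (-0.27, adjusted p = 0.0252), and uncalled GDF11 values of H2AZ1 in young (-0.048) and H2AX in senescent MSCs (-0.0018) had the opposite sign.

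Some uncalled differences changed sign when libraries were left out. H2AJ after MmC without GDF11 ran from -0.19 to 0.044. For GDF11 in young MSCs the ranges were -0.038 to 0.17 for H2AJ, -0.22 to 0.035 for H2AX, -0.11 to 0.15 for H2AZ1, -0.11 to 0.0037 for H2AZ2, -0.022 to 0.084 for H3-3A, -0.055 to 0.095 for H3-3B and -0.022 to 0.13 for MACROH2A1. For GDF11 in senescent MSCs they were -0.18 to 0.22 for H1-10, -0.13 to 0.082 for H2AJ (0.0059 after thinning), -0.12 to 0.20 for H2AX, -0.24 to 0.15 for H2AZ1, -0.060 to 0.12 for H2AZ2, -0.018 to 0.061 for H3-3A, -0.11 to 0.079 for H3-3B, -0.023 to 0.030 for MACROH2A1 and -0.041 to 0.23 for MACROH2A2. The ratio of H2AZ1 to H2AZ2 kept its sign for MmC with GDF11, from -0.59 to -0.34 (exact permutation p = 0.0286 to 0.0857, not adjusted over the 12 ratio tests). With a library left out, 0.0286 is the smallest p that test can give. For GDF11 the same ratio ran from -0.00084 to 0.18 in young and from -0.22 to 0.082 in senescent MSCs. That of H3-3A to H3-3B ran from -0.15 to 0.043 for MmC without and -0.11 to 0.041 with GDF11, -0.030 to 0.10 for GDF11 in young and -0.063 to 0.15 in senescent MSCs. That of MACROH2A1 to MACROH2A2 ran from -0.082 to 0.17 for MmC with GDF11, -0.026 to 0.28 for GDF11 in young and -0.21 to 0.042 in senescent MSCs.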
